A study of Homo sapiens with 6 samples.

Results

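The 9 genes described here encode proteins that read or write DNA methylation: ZBTB38, ZBTB4, ZBTB33, MBD1, MBD2, MBD3, UHRF1, DNMT1 and DNMT3A. They were taken by symbol from a table of 58825 genes and chosen by measured values: the low level of ZBTB38 in the knockdown was known from this same contrast, and the other 8 were set beside it with their levels known. Their levels are therefore a description and carry no test. The cells were T24, a human bladder carcinoma line in long use, and their messenger RNA was sequenced. The series asked what the mitotic spindle protein DLGAP5 does in bladder cancer. Cells with a hairpin against DLGAP5 (shDLGAP5-1, 3 libraries) were compared with cells carrying a control hairpin (shNC-1, 3 libraries, genotype given as WT). All 6 libraries came from the same line, grown in the same way, with 1 hairpin per group, so effects particular to a hairpin cannot be told apart from those of its target. No time after the introduction of the hairpins, age or passage is given in the sources used here. Separate cultures are not stated for the libraries of a group, so p-values reflect only how far these samples differ from each other, and that spread may be technical.

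In vertebrates, methyl groups on the cytosine of CG dinucleotides are placed by DNA methyltransferases. DNMT3A works mainly on unmethylated DNA, and DNMT1 copies the pattern to the new strand behind the replication fork, where UHRF1 binds hemimethylated CG sites and brings it in. Readers then bind methylated CG: MBD proteins through a methyl-CpG binding domain, and ZBTB33 (Kaiso), ZBTB4 and ZBTB38 through C2H2 zinc fingers. Most of these readers recruit repressor complexes with histone deacetylases, and MBD2 and MBD3 are alternative subunits of one such complex, NuRD.

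The choice of the genes did not use their promoter sequences, and these differed in CG content. RefSeq (GRCh38.p14) lists 25 start sites for the 9 genes, all of which were matched, and each window runs from 250 bases before the start to 50 after it. ZBTB38 has 10 of these starts, spread over 78828 bases. Its windows held 0 to 35 CG dinucleotides, against 18 to 46 in the windows of the other 8 genes and a median of 14 over 35116 windows of all genes. The first and the ninth start of ZBTB38 are shown because they hold 1 and 35 CG, with CG in capitals (chr3:141323936-141324235 and chr3:141402099-141402398, plus strand, GRCh38.p14).
ZBTB38 start 1: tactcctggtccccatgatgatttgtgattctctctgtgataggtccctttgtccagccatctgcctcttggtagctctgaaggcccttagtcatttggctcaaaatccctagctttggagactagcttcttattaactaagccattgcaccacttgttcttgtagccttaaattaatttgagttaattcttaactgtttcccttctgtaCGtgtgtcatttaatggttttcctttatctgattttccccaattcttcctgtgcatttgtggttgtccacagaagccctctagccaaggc
ZBTB38 start 9: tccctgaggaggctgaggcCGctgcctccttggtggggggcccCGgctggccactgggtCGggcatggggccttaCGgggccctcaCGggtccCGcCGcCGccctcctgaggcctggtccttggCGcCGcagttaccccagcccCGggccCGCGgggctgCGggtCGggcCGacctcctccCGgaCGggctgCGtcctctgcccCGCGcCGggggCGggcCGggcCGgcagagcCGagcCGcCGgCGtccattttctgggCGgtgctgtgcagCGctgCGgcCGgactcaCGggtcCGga
The ratio of observed to expected CG was 0.075 at the first start and 0.761 at the ninth, against a median of 0.579 over all windows. Which of these starts T24 cells used was not measured, since the deposited values are per gene.

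Letters known as E2F sites (TTTCCCGC, TTTGGCGC, TTTCGCGC or TTTGCCGC, on either strand) occurred in 4 of the 25 windows, in ZBTB4, UHRF1 and DNMT1. They occurred in 3.31% of the windows of all genes. TTTCGCGC contains CGCG, which was also searched. The 3 windows are shown with the E2F letters in capitals, UHRF1 at the first of the 2 starts that hold them (ZBTB4 chr17:7484200-7484499, minus strand; UHRF1 chr19:4909251-4909550, plus strand; DNMT1 chr19:10194904-10195203, minus strand; GRCh38.p14).
ZBTB4: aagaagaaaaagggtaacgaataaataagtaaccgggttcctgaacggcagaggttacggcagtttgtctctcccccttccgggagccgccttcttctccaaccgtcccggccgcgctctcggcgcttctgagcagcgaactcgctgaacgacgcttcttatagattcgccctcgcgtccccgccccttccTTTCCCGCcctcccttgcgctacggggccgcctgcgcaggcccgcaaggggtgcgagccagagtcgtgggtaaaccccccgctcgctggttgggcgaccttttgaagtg
UHRF1 start 1: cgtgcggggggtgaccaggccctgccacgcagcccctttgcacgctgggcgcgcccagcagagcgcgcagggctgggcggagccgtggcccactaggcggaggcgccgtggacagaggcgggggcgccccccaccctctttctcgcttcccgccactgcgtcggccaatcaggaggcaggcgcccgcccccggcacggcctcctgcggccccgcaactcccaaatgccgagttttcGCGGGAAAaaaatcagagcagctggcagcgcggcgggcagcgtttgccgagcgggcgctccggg
DNMT1: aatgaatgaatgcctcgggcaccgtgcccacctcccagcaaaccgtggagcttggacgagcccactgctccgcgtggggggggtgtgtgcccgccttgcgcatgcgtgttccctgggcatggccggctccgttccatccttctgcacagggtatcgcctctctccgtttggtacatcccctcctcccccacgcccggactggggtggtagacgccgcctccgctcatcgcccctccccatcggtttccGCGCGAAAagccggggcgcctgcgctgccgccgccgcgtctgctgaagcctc
CGCG occurred in 16 of the 25 windows and in 49.9% of all windows. The Kaiso letters TCCTGCNA occurred in 1 window, the fifth of ZBTB38, and in 4.69% of all windows. The letters TTTGAA, which are part of sites known from mitotic genes, occurred in 4 windows and in 15.2% of all. A match is a string of letters and not a measured site, and windows of close starts of 1 gene overlap.

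**Figure D1:**
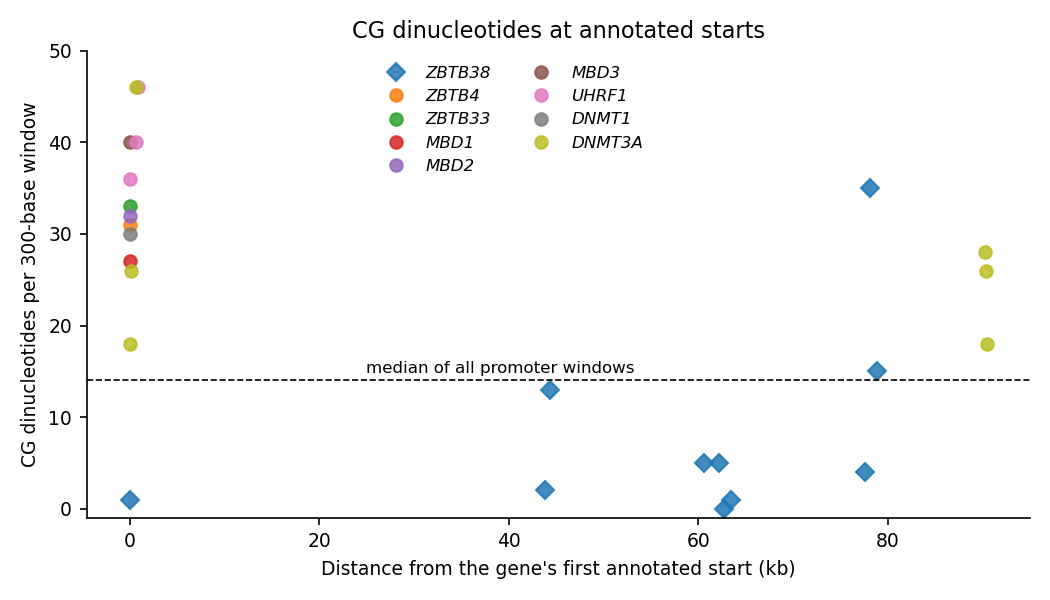
CG dinucleotides in each 300 base promoter window of the 9 genes (vertical) against the distance of its start from the gene's first start in kb (horizontal), with the dashed line at the median of all windows (14). The windows of ZBTB38 hold 0 to 35 CG, while those of the other 8 genes hold 18 to 46.

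Levels are FPKM, fragments per kilobase of transcript scaled by library size. Estimated depth was about 13700000 to 18300000 fragments in shDLGAP5-1 and 21600000 to 27600000 in shNC-1, so low genes are measured with less error in shNC-1. DLGAP5 itself averaged 5.51 ± 1.80 FPKM in shDLGAP5-1 and 31.8 ± 1.83 FPKM in shNC-1 (SD, n = 3 each). Among all 12714 genes tested, 24.8% passed an adjusted p under 0.05 in limma (15.3% higher and 9.52% lower in shDLGAP5-1). Of 14 markers of bladder and other epithelia 7 were tested, of which 1 fell (KRT19) and 0 rose, 0 also at an unadjusted p under 0.05 in limma. KRT19 averaged 10.7 ± 0.285 FPKM in shDLGAP5-1 and 18.9 ± 1.78 FPKM in shNC-1 (log2 difference −0.76, adjusted p = 0.00438 in limma). KRT7, at 633 to 855 FPKM in shDLGAP5-1 and 566 to 645 in shNC-1, differed by 0.31, KRT8 by −0.47 and KRT18 by −0.29, and none of these 3 passed. KRT20 was listed at 0 and UPK2 was under 1 FPKM in all 6 libraries. Replicate 3 of shDLGAP5-1 stood apart: 14 leukocyte and blood markers summed to 724 FPKM there, against 8.68 and 17.0 in the other shDLGAP5-1 libraries and 9.59 to 31.4 in shNC-1. Of those 724 FPKM, lysozyme (LYZ) gave 686, PTPRC had 7.03 FPKM, and 5 of the 14 markers, CD3E and MS4A1 among them, were listed at 0. Some results are therefore also given without that library, and the part of those transcripts in other results was not tested. In bulk RNA, fewer cells with a transcript and less of it per cell cannot be told apart.

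ZBTB38 (ENSG00000177311, chromosome 3, 141324213 to 141449792, plus strand, GRCh38) had by far the greatest difference of the 9. This zinc finger protein binds single methylated CG sites and represses transcription. It stood at 2.62, 4.72 and 4.80 FPKM in shDLGAP5-1 replicates 1 to 3, against 26.9, 24.7 and 17.9 FPKM in shNC-1 replicates 1 to 3. The highest shDLGAP5-1 library lay well under the lowest shNC-1 library. The means were 4.04 ± 1.24 and 23.1 ± 4.70 FPKM (SD, n = 3 each), a difference of −82.5% in shDLGAP5-1. On the scale of log2(FPKM + 1), which understates the change of low genes, the difference was −2.27 with an SE of 0.23. With a longest transcript of 7683 bases, these levels correspond to about 275 to 675 fragments in shDLGAP5-1 and 3350 to 5240 in shNC-1, so counting error is small beside the difference.

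The annotation around ZBTB38 matters for the values. PXYLP1, a xylose phosphatase gene, shares 43541 bases of the locus on the same strand, and reads in the shared stretch could be counted for either. PXYLP1 stood at 1.75, 4.10 and 2.95 FPKM in shDLGAP5-1 and 1.81, 2.08 and 1.51 FPKM in shNC-1. Its levels were thus low in both groups, with overlapping ranges and a log2 difference of 0.45 (adjusted p = 0.191 in limma). RASA2, the next gene at higher coordinates, encodes an inhibitor of Ras and averaged 8.36 ± 0.498 and 6.47 ± 1.00 FPKM (adjusted p = 0.117 in limma). Neither gene at the locus showed the lower level of ZBTB38.

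ZBTB4 (ENSG00000174282, chromosome 17, 7459366 to 7484263, minus strand) lay the other way. It reads methylated CG through zinc fingers related to those of ZBTB33 and ZBTB38. It had 13.6, 17.6 and 16.4 FPKM in shDLGAP5-1, against 13.0, 12.7 and 10.9 FPKM in shNC-1. Every shDLGAP5-1 library lay above every shNC-1 library, but replicate 1 of the 2 groups by little. The log2 difference was 0.35 (SE 0.13). POLR2A, the large subunit of RNA polymerase II, begins 103 bases from ZBTB4 on the opposite strand. It averaged 30.7 ± 7.66 FPKM in shDLGAP5-1 and 53.0 ± 10.0 FPKM in shNC-1 (log2 difference −0.78, adjusted p = 0.0389 in limma), a call that did not hold when any of 4 libraries was left out.

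ZBTB33 (ENSG00000177485, chromosome X, 120250752 to 120258398, plus strand) encodes Kaiso. It stood at 9.52, 9.61 and 14.5 FPKM in shDLGAP5-1 and at 9.45, 9.24 and 7.85 FPKM in shNC-1. The groups did not overlap, yet the lowest shDLGAP5-1 library and the highest shNC-1 library were nearly equal, and replicate 3 of shDLGAP5-1 was the outlying value. The log2 difference was 0.29 (SE 0.18), and 0.10 without shDLGAP5-1 replicate 3, the library with leukocyte transcripts. It was 0.18 with median-ratio scaling and 0.19 with columns of equal total.

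Within this zinc finger family the balance shifted. ZBTB38 made up 10.2%, 14.8% and 13.4% of the summed FPKM of the 3 genes in shDLGAP5-1, against 54.5%, 52.9% and 48.8% in shNC-1. The ratio of ZBTB38 to ZBTB4 was 0.192, 0.268 and 0.292 in shDLGAP5-1 and 2.07, 1.94 and 1.64 in shNC-1. ZBTB38 was thus the most abundant of the 3 in each shNC-1 library and the least abundant in each shDLGAP5-1 library. Multiplying a library by 1 factor leaves these ratios as they are, but they restate the values that chose ZBTB38.

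**Figure D2:**
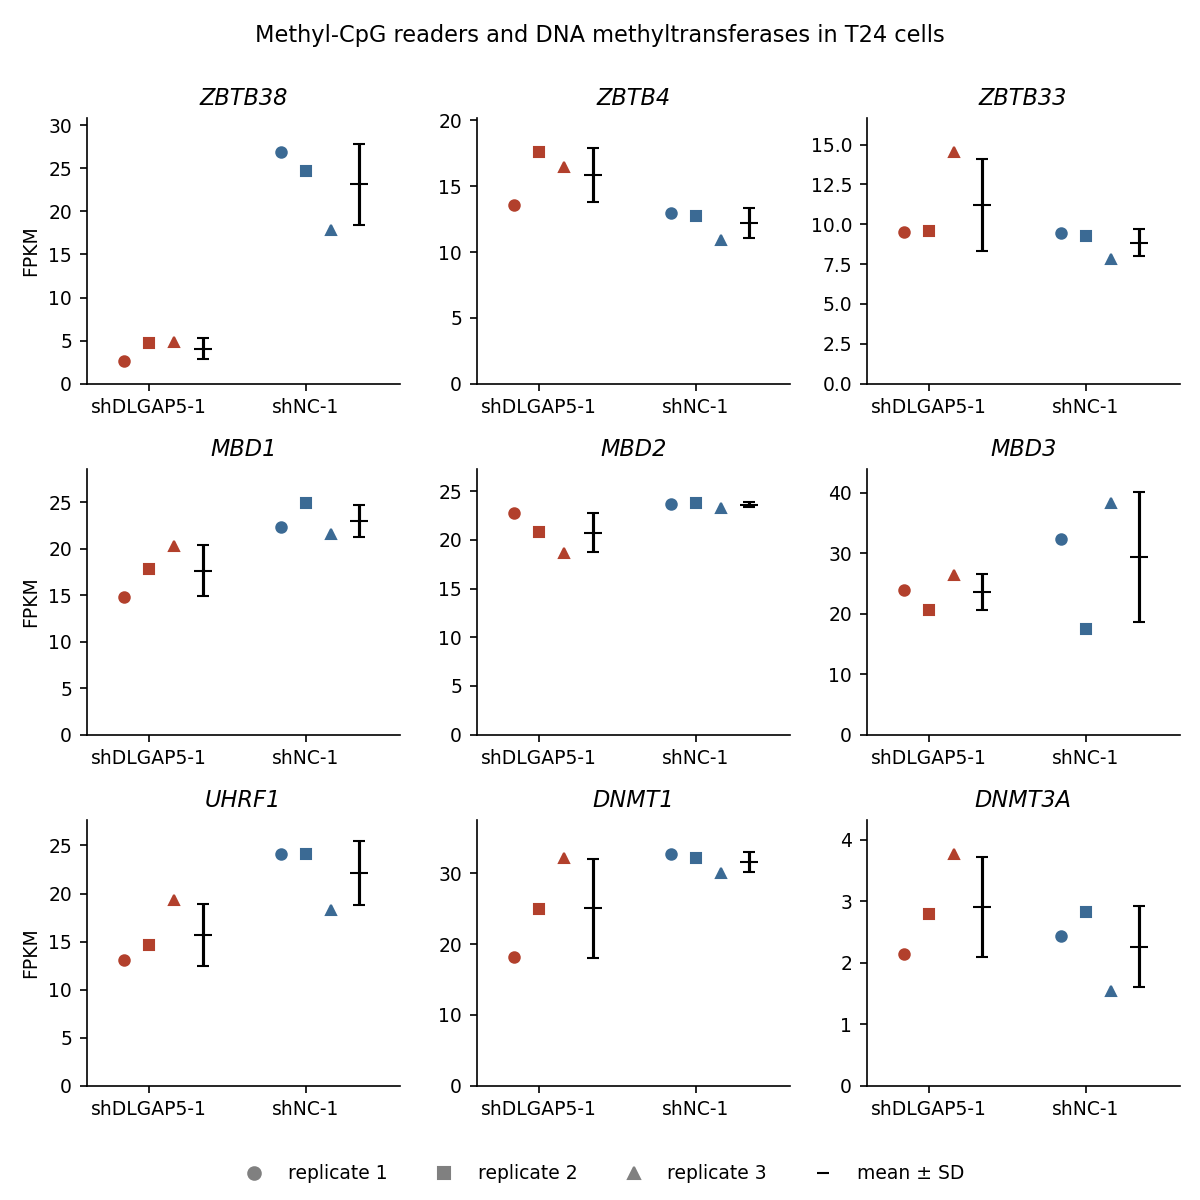
FPKM of each of the 9 genes in every library, shDLGAP5-1 left of shNC-1, with points for libraries and bars for the mean ± SD on linear axes that start at 0. ZBTB38 sits at 2.62 to 4.80 in shDLGAP5-1 and at 17.9 to 26.9 in shNC-1, while MBD3, UHRF1, DNMT1 and DNMT3A overlap.

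The MBD genes are given next; their groups overlapped in MBD3 and not in MBD1 or MBD2. MBD1 (ENSG00000141644, chromosome 18, 50266882 to 50281774, minus strand), which links methylated DNA to histone H3 lysine 9 methylation, had 14.8, 17.8 and 20.3 FPKM in shDLGAP5-1 and 22.4, 24.9 and 21.6 FPKM in shNC-1. The groups did not overlap, and the log2 difference was −0.37 (SE 0.14).

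MBD2 (ENSG00000134046, chromosome 18, 54151606 to 54224669, minus strand), the NuRD subunit that binds methylated CG, had 22.7, 20.8 and 18.7 FPKM in shDLGAP5-1 and 23.7, 23.8 and 23.3 FPKM in shNC-1. Here too the groups did not overlap, with a log2 difference of −0.18 (SE 0.11). It was −0.11 without shDLGAP5-1 replicate 3, −0.30 with median-ratio scaling and −0.29 with columns of equal total. Its spread in shNC-1 was the narrowest of the 9 genes, at an SD of 0.252 FPKM around 23.6.

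MBD3 (ENSG00000071655, chromosome 19, 1573596 to 1592865, minus strand), whose mammalian form binds methylated CG poorly, had 23.9, 20.6 and 26.4 FPKM in shDLGAP5-1 and 32.4, 17.4 and 38.3 FPKM in shNC-1. Replicate 2 of shNC-1 lay under all 3 shDLGAP5-1 libraries and the other 2 above them. The log2 difference of −0.24 (SE 0.27) became −0.56 without shNC-1 replicate 2 and −0.02 without shNC-1 replicate 3. The ratio of MBD2 to MBD3, the alternative NuRD subunits, ran from 0.708 to 1.01 in shDLGAP5-1 and from 0.609 to 1.36 in shNC-1, so it overlapped.

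UHRF1 (ENSG00000276043, chromosome 19, 4903080 to 4962154, plus strand), the reader of hemimethylated CG, had 13.1, 14.7 and 19.3 FPKM in shDLGAP5-1 and 24.1, 24.1 and 18.2 FPKM in shNC-1. Replicate 3 of shDLGAP5-1 lay above replicate 3 of shNC-1, so the groups overlapped. The log2 difference was −0.48 (SE 0.18), the next greatest after ZBTB38.

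DNMT1 (ENSG00000130816, chromosome 19, 10133345 to 10231286, minus strand), the maintenance methyltransferase, had 18.1, 24.9 and 32.1 FPKM in shDLGAP5-1 and 32.7, 32.1 and 30.0 FPKM in shNC-1. The shNC-1 libraries were close together, while the shDLGAP5-1 libraries spread from well under them up to their level. The log2 difference was −0.36 (SE 0.19). It became −0.55 without shDLGAP5-1 replicate 3, the library with leukocyte transcripts, and −0.15 without shDLGAP5-1 replicate 1, so single libraries set its size. S1PR2, a sphingosine phosphate receptor gene, shares 9854 bases of this locus on the same strand and had 2.23, 2.37 and 1.59 FPKM in shDLGAP5-1 and 0.805, 0.743 and 0.837 FPKM in shNC-1. It entered the test through shDLGAP5-1 only, so its adjusted p of 0.00899 in limma is no support for a difference.

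The ratio of UHRF1 to DNMT1, which act together at the fork, was 0.723, 0.590 and 0.600 in shDLGAP5-1 and 0.737, 0.7497 and 0.608 in shNC-1, with overlapping ranges. Both genes are known to be highest in S phase, and lists of cell cycle genes give the setting. Of 21 S phase genes, all tested, 1 rose (MCM6) and 1 fell (RRM1) in shDLGAP5-1 in limma, with a median log2 difference of −0.09. These 2 calls are 9.52% of the list, beside 24.8% of all genes. The MCM6 call was lost in 6 of 14 alternatives, the fits without shNC-1 replicate 1, 2 or 3 among them. RRM1 passed in all 14. The number that fell was 3 with columns of equal total, 3 with median-ratio scaling and 1 after quantile normalization. It was 4 with the length trend removed, a setting added after seeing the data. Against the shNC-1 mean, that list's median was −0.17, −0.11 and 0.11 in shDLGAP5-1 replicates 1 to 3. Of 20 mitosis genes 15 fell in limma (75% beside 9.52% of all genes) and 0 rose, 0 also at an unadjusted p under 0.05, with a median of −0.87 and library medians of −0.88, −0.92 and −0.62. The lowest p-values were those of CDC20 (log2 difference −1.17), KIF20A (−1.12), CCNB1 (−1.05) and PLK1 (−1.27), regulators or motors of mitosis. UHRF1 and DNMT1 were highest in shDLGAP5-1 replicate 3 among the shDLGAP5-1 libraries, but so were ZBTB38, ZBTB33, MBD1, MBD3 and DNMT3A. That library is also the one with leukocyte transcripts. The part of the cell cycle in the levels of UHRF1 and DNMT1 was not tested.

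DNMT3A (ENSG00000119772, chromosome 2, 25227855 to 25342590, minus strand), a de novo methyltransferase, was the lowest of the 9 genes in both groups. It had 2.15, 2.79 and 3.77 FPKM in shDLGAP5-1 and 2.43, 2.82 and 1.55 FPKM in shNC-1, with overlap. The log2 difference of 0.26 (SE 0.21) became 0.10 without shDLGAP5-1 replicate 3 and 0.09 without shNC-1 replicate 3. It was 0.40 without shDLGAP5-1 replicate 1 and 0.17 with median-ratio scaling. DNMT3B, the other de novo enzyme, averaged 4.24 ± 1.30 FPKM in shDLGAP5-1 and 3.33 ± 0.521 FPKM in shNC-1 (adjusted p = 0.372 in limma).

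The order of the 9 levels, by mean FPKM per gene, changed at ZBTB38 and between UHRF1 and ZBTB4. In shDLGAP5-1 it ran DNMT1, MBD3, MBD2, MBD1, ZBTB4, UHRF1, ZBTB33, ZBTB38 and DNMT3A. Neighbours in that order overlapped except ZBTB33 and ZBTB38. In shNC-1 it ran DNMT1, MBD3, MBD2, ZBTB38, MBD1, UHRF1, ZBTB4, ZBTB33 and DNMT3A, and neighbours overlapped down to UHRF1 and not from there on. ZBTB38 was thus in place 8 in shDLGAP5-1 and in place 4 in shNC-1. The 9 genes summed to 120, 134 and 156 FPKM in shDLGAP5-1 and 187, 172 and 170 FPKM in shNC-1.

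All 9 genes reached 1 FPKM in every library, so none entered the test through 1 group alone. Among all genes tested 24.8% passed the threshold, 15.3% higher and 9.52% lower in shDLGAP5-1. Groups did not overlap for 43.9% (25.6% higher and 18.3% lower). Of the 9 genes, 1 (ZBTB38) passed that threshold and 5 had no overlap (ZBTB4 and ZBTB33 higher, ZBTB38, MBD1 and MBD2 lower). Since this contrast was used to choose the genes, nothing is read from these counts. The median log2 difference of the 9 was −0.24, beside 0.03 over all genes. Over 15 ways of processing (14 for DNMT3A) the difference of ZBTB38 ran from −2.52 to −2.05, a direction that its choice had fixed, and no other gene of the 9 changed sign. Median-ratio scaling, which moved the median of all genes by −0.10, also took MBD1 and UHRF1 past the threshold. Removing the length trend, chosen after seeing the data, did so for ZBTB4, MBD1 and UHRF1. Leaving out shDLGAP5-1 replicate 3 did so for MBD1, UHRF1 and DNMT1, and leaving out shDLGAP5-1 replicate 1 did so for ZBTB4.

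**Figure D3:**
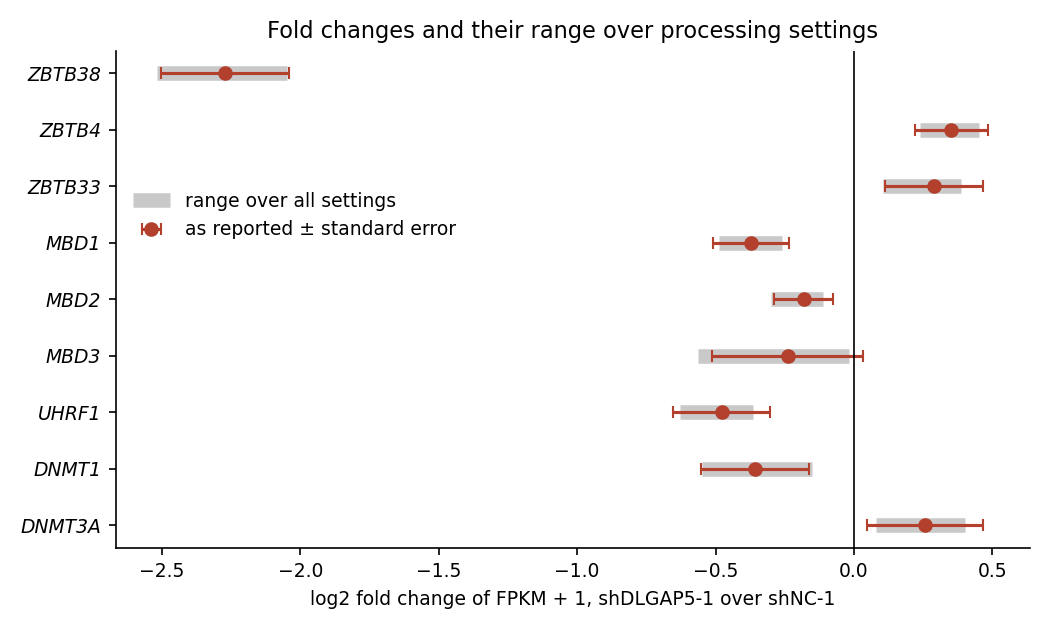
Log2 difference of each of the 9 genes, shDLGAP5-1 minus shNC-1, on the log2(FPKM + 1) scale; points are the values, thin bars ± 1 SE, and grey bars the range over all 15 ways of processing. ZBTB38 lies at −2.27 and the other 8 between −0.48 and 0.35.

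ZBTB38 was also set beside its wider gene family, proteins with a BTB domain and zinc fingers that mostly act as transcription factors. Of 32 other genes named ZBTB and a number, 29 were tested, of which 4 rose and 2 fell in limma. That is 20.7%, beside 24.8% of all genes, and the family's median log2 difference was 0.22, beside 0.03. ZBTB2 fell to 5.58 ± 0.503 FPKM in shDLGAP5-1, against 10.2 ± 0.535 FPKM in shNC-1 (SD, n = 3 each; log2 difference −0.77, adjusted p = 0.00487 in limma). ZBTB9 also fell (−0.68, adjusted p = 0.0306), a call lost without shDLGAP5-1 replicate 2 or shNC-1 replicate 1 or 2, while ZBTB20 (0.69, adjusted p = 0.0134) and ZBTB48, a telomere-binding protein (0.57, adjusted p = 0.0146), rose in the same limma fit. ZBTB20 overlaps AC093010.3 on its own strand, so reads can be shared, and the level of ZBTB9 is uncertain in the same way. The 4 rises became 0 without shNC-1 replicate 2 and 2 without shNC-1 replicate 1 or 3. No difference in this family was as great as that of ZBTB38, but ZBTB38 was chosen for its size.

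**Figure D4:**
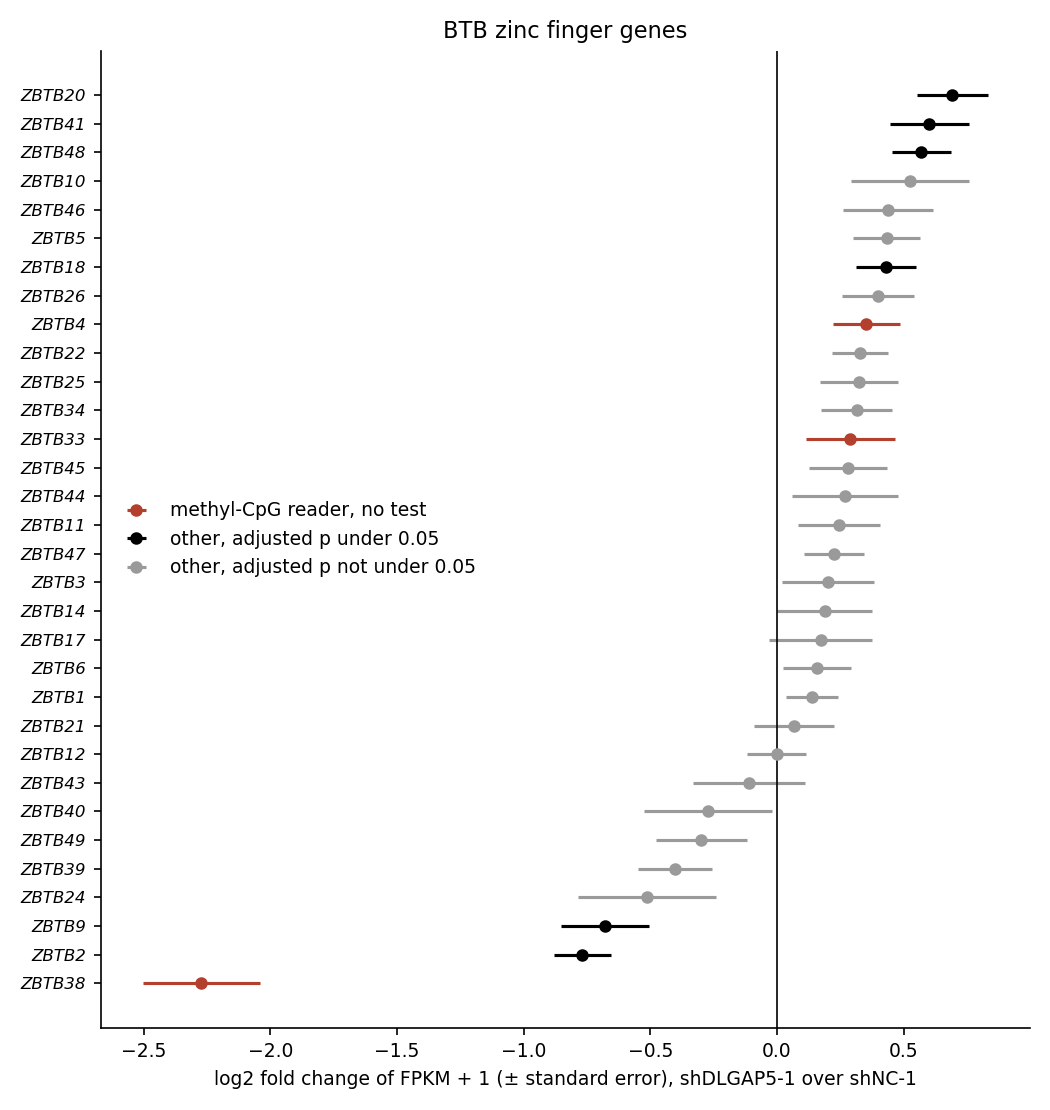
Log2 difference, shDLGAP5-1 minus shNC-1, of ZBTB38, ZBTB4, ZBTB33 and the 29 other tested ZBTB genes, with bars of ± 1 SE; red marks the 3 methyl-CpG readers and black the others past the threshold. ZBTB38 at −2.27 lies below all others, of which ZBTB2 at −0.77 comes next.

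The genes whose levels ran most like ZBTB38 over the 6 libraries were POFUT1, MCL1, DIAPH3, DBR1 and MTMR1, with a Pearson correlation of 0.998 to 0.999 on log2(FPKM + 1). The libraries fall into the 2 hairpin groups and share their depths, so such values describe these libraries only. POFUT1, an O-fucosyltransferase, had 19.3, 21.5 and 21.5 FPKM in shDLGAP5-1 and 33.0, 32.0 and 30.3 FPKM in shNC-1. Like ZBTB38, it was lowest in replicate 1 of shDLGAP5-1 and, among the shNC-1 libraries, lowest in replicate 3. POFUT1 was chosen by correlation over these same libraries, which favours such an order. MCL1 (log2 difference −0.28, adjusted p = 0.0631) and DBR1 (−0.27, adjusted p = 0.0921) did not pass in limma. POFUT1, DIAPH3 and MTMR1 passed, but a choice by likeness to ZBTB38 favours a group difference, so nothing is read from it.

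Proteins that work with the 9 were described from 6 lists: other methyl-CpG readers, methyltransferase cofactors, demethylation, the methyl donor cycle, NuRD subunits and partners of the readers. Of 79 genes 71 were tested, and 3 rose and 5 fell in limma, together 11.3% beside 24.8% of all genes, with a median log2 difference of 0.04. Among partners of the readers, 1 of 15 rose: HDAC3, the deacetylase of the NCoR complex that Kaiso is known to recruit. HDAC3 had 34.9, 37.5 and 37.8 FPKM in shDLGAP5-1, against 20.3, 21.1 and 23.95 FPKM in shNC-1 (log2 difference 0.73, SE 0.11, adjusted p = 0.00443). It passed in every alternative run.

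RBBP6, the ubiquitin ligase known to mark ZBTB38 for degradation, did not pass (log2 difference 0.17, adjusted p = 0.293 in limma). Neither did USP9X, a deubiquitinase known to stabilise ZBTB38 (−0.19, adjusted p = 0.423 in limma). MCM10, a replication factor gene that ZBTB38 is known to repress, averaged 4.35 ± 1.43 FPKM in shDLGAP5-1 and 6.15 ± 0.201 FPKM in shNC-1 (adjusted p = 0.153 in limma). The CtBP corepressors that ZBTB38 binds, CTBP1 (−0.12, adjusted p = 0.649) and CTBP2 (0.38, adjusted p = 0.322), did not pass in limma either.

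Among 12 NuRD subunits tested, 2 fell and 0 rose, with 1 higher at an unadjusted p under 0.05 in limma. The 2 calls are 16.7% of the 12, beside 24.8% of all genes. The remodeller CHD3 averaged 31.6 ± 3.24 FPKM in shDLGAP5-1 and 45.5 ± 1.51 FPKM in shNC-1 (log2 difference −0.51, adjusted p = 0.0155 in limma), a call that did not hold when shNC-1 replicate 1 or 2 was left out. CHD3 overlaps NAA38 on the other strand, and whether counting used strand is not given. GATAD2A, which links MBD2 or MBD3 to the remodeller, averaged 15.7 ± 2.14 FPKM in shDLGAP5-1 and 24.02 ± 1.40 FPKM in shNC-1 (−0.59, adjusted p = 0.0169 in limma), lost without shNC-1 replicate 2 or 3. MBD2 and MBD3, described above, had log2 differences of −0.18 and −0.24.

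Of 15 genes tested from the list of methyltransferase cofactors 1 rose and 2 fell, together 20% beside 24.8% of all genes. That list also holds DNMT3B and TRDMT1, which are methyltransferases themselves. SETD7, a lysine methyltransferase that acts on DNMT1, averaged 5.80 ± 1.63 FPKM in shDLGAP5-1 and 9.87 ± 1.21 FPKM in shNC-1 (−0.70, adjusted p = 0.0361 in limma). CDCA7L (0.65, adjusted p = 0.0473) rose and TRDMT1, an RNA methyltransferase of the DNMT family (−0.69, adjusted p = 0.0481), fell in limma. Each of these 3 calls was lost without any of several single libraries. Without shDLGAP5-1 replicate 3, 0 genes of that list rose and 1 fell. PCNA, the sliding clamp that binds DNMT1 at the fork, had 190, 149 and 160 FPKM in shDLGAP5-1 and 121, 122 and 135 FPKM in shNC-1 without overlap (0.39, adjusted p = 0.0589 in limma). USP7, which stabilises DNMT1 and UHRF1, did not pass (−0.36, adjusted p = 0.0917 in limma).

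Of 9 other methyl-CpG readers tested, 0 passed in limma, with 2 higher and 0 lower at an unadjusted p under 0.05. Of 11 demethylation genes 1 fell, or 9.09% beside 24.8% of all genes. It was GADD45A, a stress-induced protein linked to repair-based demethylation. GADD45A averaged 110 ± 13.8 FPKM in shDLGAP5-1 and 178 ± 23.97 FPKM in shNC-1 (−0.70, adjusted p = 0.0143 in limma). Without shDLGAP5-1 replicate 3, the library with leukocyte transcripts, 1 demethylation gene rose and 2 fell. The dioxygenases TET2 (0.00, adjusted p = 0.999) and TET3 (−0.27, adjusted p = 0.402) did not pass in limma, and TET1 was under 1 FPKM in all libraries. Of 9 methyl donor genes 1 rose, or 11.1% beside 24.8% of all genes. It was MAT2B, a regulator of S-adenosylmethionine synthesis (0.48, adjusted p = 0.0280 in limma). That call was lost in 8 of 14 alternatives. Median-ratio scaling and the fits without shDLGAP5-1 replicate 1 or 3 or shNC-1 replicate 1 or 3 were among them.

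Methylation of DNA was not measured. The levels of germline genes known to be silenced by it, and of imprinted genes, are given as a further description. Both lists were chosen with earlier results of these data known, and nothing about methylation is read from them. Of 30 germline genes silenced by methylation in most somatic cells, 5 were high enough to test. Of these 4 fell and 0 rose, 0 also at an unadjusted p under 0.05 in limma. The 4 are 80% of those tested, beside 9.52% of all genes, but all of them are MAGEA genes. MAGEA3 had 13.1, 17.1 and 14.9 FPKM in shDLGAP5-1, against 28.1, 27.4 and 30.8 FPKM in shNC-1 (log2 difference −0.90, SE 0.12, adjusted p = 0.00391 in limma). MAGEA1, MAGEA6 and MAGEA12 also fell, by 0.49 to 0.54 on the log2 scale. The MAGEA genes are related copies, some more alike than others, that can share reads. Their counts are therefore uncertain and cannot be taken as independent. Only 1 of the 4 was called in several fits without 1 library. MAGEB2, a further X-linked germline gene, did not pass (0.08, adjusted p = 0.672 in limma).

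Of 21 rows of imprinted genes, which are expressed mainly from 1 parental copy, 8 were tested. Of these 3 rose and 0 fell, 0 also at an unadjusted p under 0.05 in limma. The 3 rises, IGF2 among them, are 37.5% of the 8, beside 15.3% of all genes. CDKN1C, an inhibitor of cyclin-dependent kinases, had 8.54, 9.22 and 6.48 FPKM in shDLGAP5-1, against 2.72, 3.02 and 2.33 FPKM in shNC-1 (log2 difference 1.29, SE 0.16, adjusted p = 0.00253 in limma). SNRPN, a spliceosome protein gene, had 34.2, 32.4 and 30.0 FPKM in shDLGAP5-1, against 9.55, 12.8 and 16.0 FPKM in shNC-1 (1.30, SE 0.18, adjusted p = 0.00377 in limma). It overlaps SNURF and SNHG14 on the same strand. The calls for MAGEA3, CDKN1C and SNRPN held in every alternative run. IGF2 was the other rise, but reached 1 FPKM in shDLGAP5-1 only, so it had to differ. H19, the noncoding partner of IGF2, was not tested, and stood at 0.250, 0.177 and 0.208 FPKM in shDLGAP5-1, against 3.53, 12.2 and 0.628 FPKM in shNC-1.

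**Figure D5:**
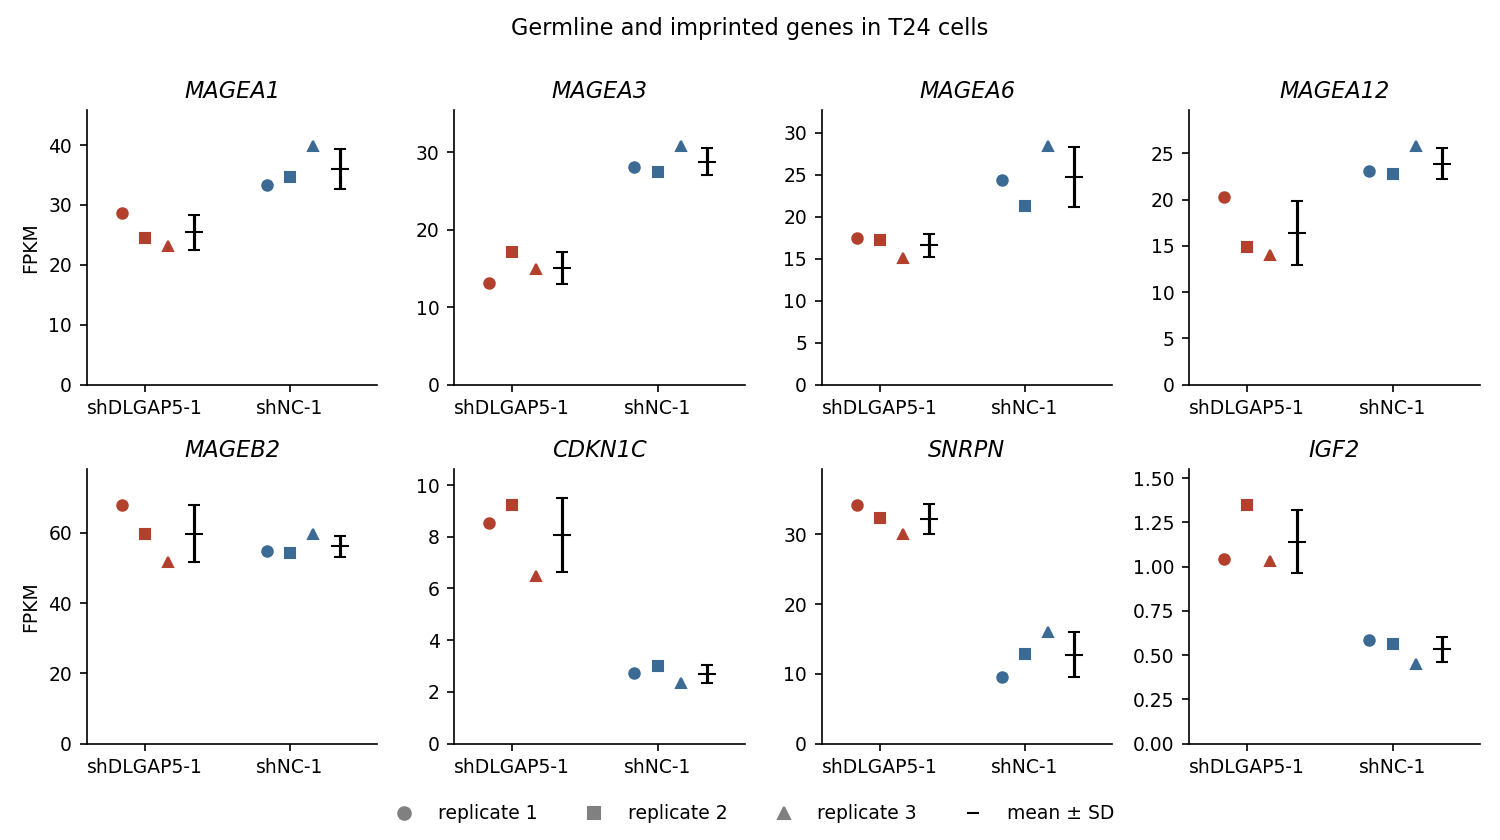
FPKM of the 5 tested germline genes and of CDKN1C, SNRPN and IGF2 in every library, shDLGAP5-1 left of shNC-1, with bars for the mean ± SD on linear axes. MAGEA3 sits at 13.1 to 17.1 in shDLGAP5-1 and 27.4 to 30.8 in shNC-1, and CDKN1C at 6.48 to 9.22 in shDLGAP5-1 and 2.33 to 3.02 in shNC-1.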

How the data were processed

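Total RNA of T24 cells went into an mRNA library kit, per the labels' protocols, giving 6 sequenced libraries. The authors deposited 1 table of values for 58825 genes, whose header names no unit and whose values show FPKM. No source used here names the aligner, the quantifier, the annotation or how strand was used. FPKM divide by length and library size, so a few abundant transcripts shift all others. Control columns carry the letters NC, and the other 3, which carry a construct number, were given to shDLGAP5-1 as the only other group. GENCODE release 29 holds 99.5% of the identifiers, and 87.1% of those have its GRCh38 coordinates.

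Limma 3.58.1 (R 4.3.3, variance trend on) was fitted to log2(FPKM + 1) of the 12714 genes that reached 1 FPKM in 3 or more libraries. The model held group alone, and the threshold was a Benjamini-Hochberg adjusted p of 0.05. The script was tested on simulated data. Levels are means ± SD, n = 3 each. Depth was estimated from the smallest step of low single-exon genes and is approximate, so no count test was run. Precision is limited by 3 libraries a group.

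The members and the gene lists were chosen with earlier results of these data known. Of each list, up to 4 genes past the threshold are named by smallest p. Known partners, genes next to or overlapping a member, the 5 genes of at least 5 mean FPKM most correlated with ZBTB38, and DLGAP5 are named too. The test was repeated with a pseudocount of 0.1, without the filter, with a filter of 5 FPKM, with 3 scalings, with a replicate block and without each library. Removal of each library's trend with transcript length was added after seeing the data. Some genes of the lists are not reported here.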

Additional observations from a re-analysis of the deposited data

How the results depend on the processing

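Over all genes 3155 passed the threshold, 61.6% of them higher in shDLGAP5-1. With no filter 2071 passed, and without 1 library 1335 to 3141. The share higher was 48.1% with equal column totals, 42.3% with median-ratio scaling, 50.8% after quantile normalization and 50.04% with the length trend removed, an alternative chosen after seeing the data. The median log2 difference of all genes, 0.03, turned to −0.059 with equal totals, −0.070 with median-ratio scaling and −0.018 after quantile normalization. It was −0.0097 with the length trend removed and −0.021 with a filter of 5 FPKM. The sign of that median thus depends on the processing, and differences as small as it have no certain direction. Of the 9 methylation genes, 1 passed; 3 did with median-ratio scaling, 4 with the length trend removed and 1 to 4 without 1 library. ZBTB38, whose direction was fixed by its choice, was at −2.44 to −2.05 without 1 library. Of the genes in the 6 lists 8 passed; 4 did with no filter, 14 with the length trend removed and 3 to 8 without 1 library. The cause of these moves was not tested. Libraries with the same replicate number did not deviate together (correlations −0.16, 0.02 and −0.16, against −0.07 to 0.19 for unlike numbers). Such correlations cannot tell whether samples were prepared in pairs, so pairing is unknown. With the replicate block 1464 genes and 3 genes of the 6 lists passed. DNMT3A, at 1.55 to 3.77 FPKM, is the gene of the 9 that depth limits most; a filter of 5 FPKM removed it.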

Other observations

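Of other neighbours of the 9 genes, PLIN3, a lipid droplet protein gene next to UHRF1, averaged 47.1 ± 6.96 FPKM in shDLGAP5-1 and 27.5 ± 6.10 FPKM in shNC-1 (SD, n = 3 each; log2 difference 0.77, adjusted p = 0.0231 in limma). DTNB, a dystrobrevin gene next to DNMT3A, averaged 5.34 ± 0.354 FPKM in shDLGAP5-1 and 3.69 ± 0.0693 FPKM in shNC-1 (0.43, adjusted p = 0.0284 in limma). Both calls were lost without any of several single libraries. CXXC1, which binds unmethylated CG and lies 569 bases from MBD1, averaged 35.0 ± 3.92 FPKM in shDLGAP5-1 and 32.6 ± 4.47 FPKM in shNC-1 and did not pass (adjusted p = 0.611 in limma).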
